A study of Mus musculus with 12 samples.

Results

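The genes of the bone morphogenetic protein (BMP) and transforming growth factor beta (TGF-beta) pathway are described here in the postnatal mouse aortic valve, across wildtype animals and animals mutant for Notch1 and Gata5. The members were chosen by gene symbol, with earlier results of these data known. They came from the authors' deposited table of a genotype comparison. Their names mark a BMP or GDF ligand, a TGF-beta, an activin beta chain or a latent TGF-beta binding protein. The names of others mark a receptor, a Smad or an Id protein. Every gene with such a name was taken, apart from Bmp10, which the rule leaves out. The rule named 46 of the 13959 genes in that table, without Bmp and Gdf genes that only the larger count table of 20620 genes holds. By role they were 3 TGF-beta ligands, 4 latent TGF-beta binding proteins, 6 BMPs, 5 GDFs, 2 activin beta chains, 7 type I and 4 type II receptors, 1 co-receptor, 8 Smads and 4 Id proteins. The other 2, Bmp1 and Bmp2k, carry the BMP name but encode a proteinase and a kinase.

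Messenger RNA was sequenced from 12 pools of 3 aortic valves each, dissected at postnatal day 10, with 4 pools per genotype. The genotypes were wildtype, Notch1+/-;Gata5+/- (called double heterozygous below) and Notch1+/-;Gata5-/- (called Gata5-null below), so both mutant groups carry 1 mutant Notch1 allele and the wildtype group carries none. A pool is the unit of replication, and n = 4 means 4 pools throughout. The deleted part of either gene is not given in the labels, nor whether any deletion is confined to a cell type, nor the sex or strain of the animals. The 3 comparisons share groups, so they are not independent of each other.

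BMPs, GDFs, activins and TGF-betas are secreted dimers that bind a pair of receptor kinases. The type II receptor phosphorylates the type I receptor, which phosphorylates a receptor-activated Smad. BMP-type receptors act mainly on Smad1, Smad5 and Smad9, and TGF-beta and activin receptors on Smad2 and Smad3. Either class joins Smad4 and moves to the nucleus, Smad6 and Smad7 inhibit the pathway, and the Id genes are classic BMP targets. In the heart, BMP and TGF-beta signals drive the endothelial-to-mesenchymal transition that makes the endocardial cushions, from which the valves form, and TGF-beta also acts on matrix production in the later valve. Notch1 is a receptor that neighbouring cells activate on contact, and Gata5 is a DNA-binding factor of the endocardium.

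Libraries held 13866604 to 25059653 counts. Gata5 had 56, 18, 46 and 19 counts in wildtype replicates 1 to 4 and 97, 112, 98 and 15 in the double-heterozygous libraries. These counts do not check the Gata5+/- genotype. Each of the 4 Gata5-null libraries had 0, as labelled. Notch1 had 1907 to 3393 counts in the wildtype libraries and 2215 to 4540 in the 8 mutant ones, which does not check the Notch1 allele. A pair of libraries is referred to below as those that stood apart, namely Gata5-null replicate 3 and wildtype replicate 2. In these 6000 and 3208 genes were at 0, whereas the remaining libraries had 1017 to 2908. Only Gata5-null replicate 3 was far from the rest. Wildtype replicate 2 was close to Gata5-null replicate 2, which had 2908. The mean Spearman correlation with the other libraries was 0.892, 0.925 and 0.9325 for these 3 libraries in the order named. Summed markers of valve interstitial cells ranged from 20700 to 27200 CPM (counts scaled to a common normalized library size) over the 12 libraries, with 13 of 13 markers detected, and those of endothelial cells from 989 to 1400 CPM, with 11 of 11 detected. Heart muscle was also present: 18 of 18 ventricular and general muscle markers summed to 25300 to 61000 CPM.

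No member passed the test in any comparison. In edgeR's quasi-likelihood test over 19346 genes with Benjamini-Hochberg adjustment at 0.05, 0 of 46 members passed for Gata5-null against wildtype, where 0.0258% of all genes did. Likewise 0 of 46 passed for double heterozygous against wildtype and 0 of 46 for Gata5-null against double heterozygous, where 0% of all genes passed in each. DESeq2 and limma-voom also called 0 members in each comparison. At an unadjusted p under 0.05, 3 members were lower in the Gata5-null libraries than in wildtype (Tgfb2, Bmpr1b and Tgfbr1), which is 6.52% of members against 5.4% of all genes in either direction, or 3.36% lower and 2.04% higher. Double heterozygous against wildtype had 2, Inhba higher and Bmpr1b lower, or 4.35% against 1.25% of all genes, of which 0.806% were higher and 0.445% lower. The comparison of both mutant groups had 1, Inhba, lower in the Gata5-null libraries, or 2.17% of members against 3.18% of all genes, 1.1% higher and 2.08% lower. These counts rest on 1 to 3 genes each, and the members are described below by their values. Without both libraries that stood apart, the members under that p for Gata5-null against wildtype were Bmp3, Bmpr1b, Id1 and Tgfb2, and 7 of the 46 log2 fold changes in that comparison changed sign.

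The intervals show how large a change each member could still hold. For Gata5-null against wildtype the 95% interval of the log2 fold change lay within ±1, a 2-fold change in either direction, for 34 of 46 members, and for 36 in each of the other comparisons. Those whose interval reached beyond it for Gata5-null against wildtype were Acvr1c, Acvr2b, Bmp2, Bmp5, Bmp8b, Bmpr1b, Gdf1, Gdf6, Gdf7, Gdf10, Inhbb and Smad9. The interval extended by a median of 0.44 to either side, from 0.23 for Ltbp4 to 3.93 for Gdf1. Among the 8 Smads the interval lay within ±1 for 7 in each comparison, all but Smad9, and among the receptors and co-receptor for 9, 9 and 10 of 12.

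**Figure D1:**
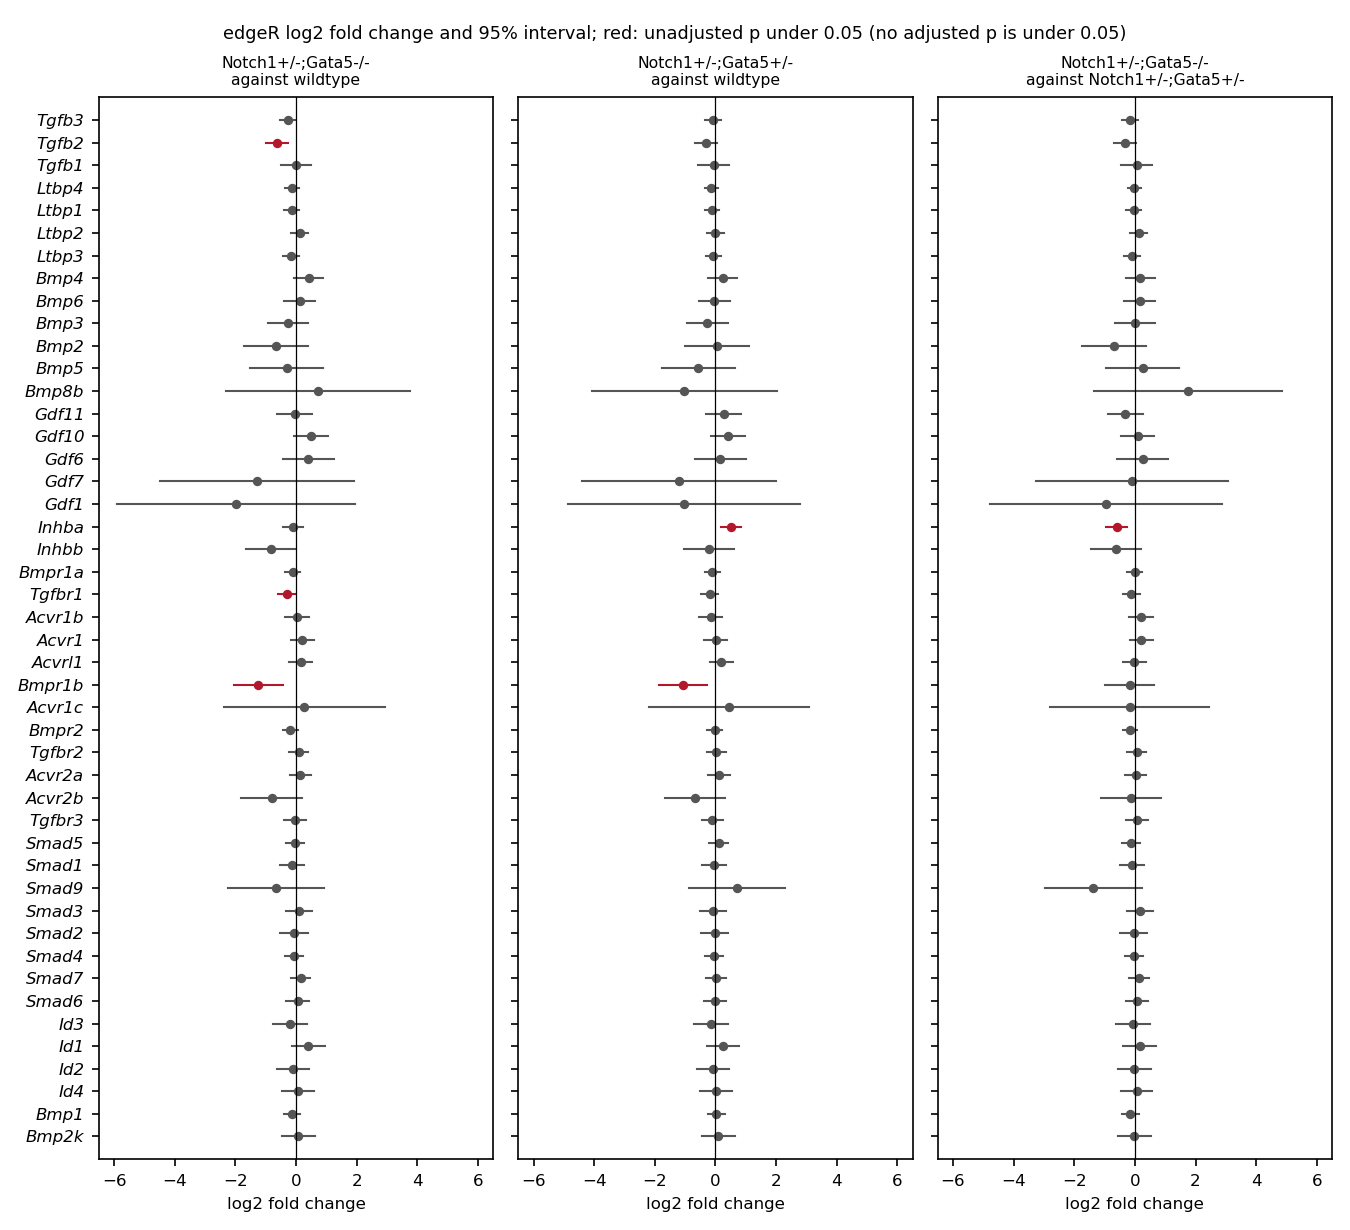
The log2 fold change of each of the 46 members with its 95% interval (horizontal axis) in the 3 comparisons (panels), members ordered by role from ligands at the top to Id proteins and the pair of BMP-named enzymes at the bottom; red marks an unadjusted p under 0.05. Most intervals are narrow and span 0, those of Gdf1, Bmp8b and Acvr1c are wide, and red is seen for 3 members in the left panel, 2 in the middle and 1 on the right.

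The pools also held muscle, so the levels given here are those of the dissected tissue and not of valve cells alone. The highest member transcripts of the pools, compared per kilobase of exon as the mean over the 12 libraries, were the latent TGF-beta binding proteins. These are matrix proteins. Ltbp4 stood at 105 CPM per kilobase, followed by Ltbp1 at 43.3, Ltbp2 at 41.1, the ligand Tgfb3 at 40.5, Ltbp3 at 39.6 and the BMP receptor Bmpr1a at 37.8. The values from Ltbp1 to Bmpr1a lie close together, and neighbours in that order differed by less than their spread over libraries. Below them came Smad7 (24.3), the proteinase Bmp1 (22.1), Id3 (22.1), Smad4 (19.6), Id1 (17.6) and Tgfbr1 (17.6). In all, 22 members exceeded 10 CPM per kilobase and 4 were under 1: Gdf7, Gdf1, Bmp8b and Acvr1c. Ltbp4 was 532 times the level of Acvr1c, the lowest at 0.197 CPM per kilobase, and the median member stood at 9.10.

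**Figure D2:**
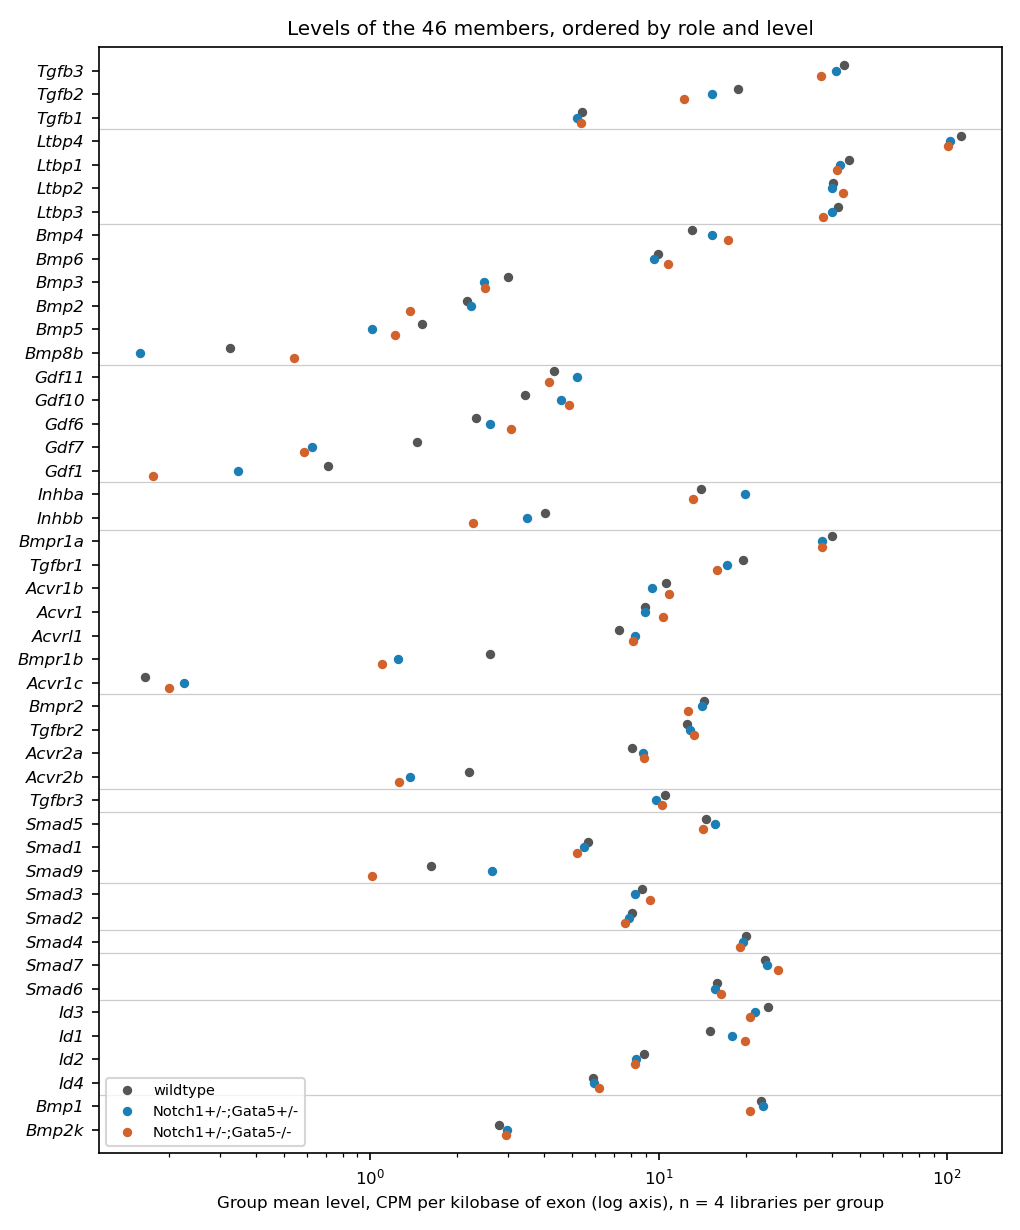
Group mean level of each member in CPM per kilobase of exon (log axis, n = 4 libraries per group), ordered by role, with 1 point per genotype. Ltbp4 at 105 CPM per kilobase over all libraries is farthest right and Acvr1c at 0.197 farthest left, and for most members the 3 genotypes lie close together.

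For the members with an unadjusted p under 0.05 in any comparison, the promoter sequences are shown because Gata5 and the Notch1 partner RBPJ act on DNA. Each is the 250 bases before the 5′-most annotated start, from RefSeq on GRCm38.p6, printed 5′ to 3′ on the gene's strand. Capitals mark CAGACA, a Smad-binding element, or GGCGCC, a GC-rich element bound by BMP-type Smads. Tgfb2 lies at chr1:186705990-186706239 (minus strand), Bmpr1b at chr3:141982265-141982514 (minus strand), Tgfbr1 at chr4:47352972-47353221 (plus strand) and Inhba at chr13:16011601-16011850 (plus strand).
Tgfb2: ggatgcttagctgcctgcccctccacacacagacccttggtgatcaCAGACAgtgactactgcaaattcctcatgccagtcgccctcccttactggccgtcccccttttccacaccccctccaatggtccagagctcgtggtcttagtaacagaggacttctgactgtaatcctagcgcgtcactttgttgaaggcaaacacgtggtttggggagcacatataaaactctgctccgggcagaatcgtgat
Bmpr1b: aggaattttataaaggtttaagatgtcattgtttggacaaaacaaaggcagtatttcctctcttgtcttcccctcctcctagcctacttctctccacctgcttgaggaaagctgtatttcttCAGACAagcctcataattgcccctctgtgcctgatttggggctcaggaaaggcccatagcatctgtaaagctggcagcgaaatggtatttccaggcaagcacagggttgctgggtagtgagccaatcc
Tgfbr1: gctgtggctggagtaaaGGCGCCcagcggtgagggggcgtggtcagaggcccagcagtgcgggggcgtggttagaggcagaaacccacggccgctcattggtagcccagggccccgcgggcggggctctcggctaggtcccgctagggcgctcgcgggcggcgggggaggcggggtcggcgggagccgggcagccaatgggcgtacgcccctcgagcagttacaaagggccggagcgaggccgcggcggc
Inhba: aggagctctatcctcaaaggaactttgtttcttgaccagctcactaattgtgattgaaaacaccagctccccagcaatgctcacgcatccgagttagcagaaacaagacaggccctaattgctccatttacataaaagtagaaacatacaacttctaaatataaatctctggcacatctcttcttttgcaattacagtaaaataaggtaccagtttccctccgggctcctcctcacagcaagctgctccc

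CAGACA begins 204 bases before the start in Tgfb2 and 128 bases before it in Bmpr1b, and GGCGCC begins 233 bases before the start in Tgfbr1. The Inhba window held none of the motifs searched. Of the 46 members, 35 had a promoter in the RefSeq table, and those without one were Acvrl1, Bmp1, Bmp2, Bmp3, Gdf6, Id1, Smad2, Smad4, Smad7, Tgfb3 and Tgfbr3. On either strand, CAGACA was in 4 of the 35 (Bmp5, Bmp8b, Bmpr1b and Tgfb2), or 11.4% against 17.1% of 27025 genes with a window of the same length. GGCGCC was in 8 (Bmp2k, Bmpr1a, Bmpr2, Gdf1, Id2, Id4, Smad9 and Tgfbr1), 22.9% against 9.57%, and the members' windows were richer in G and C, 66.7% against 53% of all. A GATA motif (the letters AGATAA, the letters AGATAG, the letters TGATAA or the letters TGATAG) was in 1, Inhbb, 2.86% against 27.1%. The RBPJ motif TGGGAA was in 7 (Bmp5, Bmpr1a, Bmpr2, Id4, Ltbp3, Smad3 and Smad9), 20% against 21.5%. These letters describe the windows and show no binding.

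Among the TGF-beta ligands, Tgfb2, which is required for normal heart valve development, had the lowest p of the class. Wildtype replicates 1 to 4 held 90.6, 128, 87.2 and 131 CPM, the double-heterozygous libraries 92.5, 81.6, 91.5 and 87.8 CPM and the Gata5-null libraries 80.6, 75.6, 46.5 and 80.5 CPM, always in replicate order. Every Gata5-null library lay below every library of the other groups. The mean was 109 ± 23.6 CPM in wildtype, 88.3 ± 4.93 in double heterozygous and 70.8 ± 16.3 in Gata5-null (SD, n = 4). Between Gata5-null and wildtype the log2 fold change was -0.63 (SE 0.17, 95% interval -0.98 to -0.27), with an unadjusted p of 0.00148 and an adjusted p of 0.563 in edgeR. An exact permutation test over the 8 libraries gave a two-sided p of 0.0286, the smallest it can give. The lowest value, in Gata5-null replicate 3, and one of the highest, in wildtype replicate 2, came from the libraries that stood apart. Without both libraries the log2 fold change was -0.38, with an unadjusted p of 0.0252 and an adjusted p of 0.91 in edgeR. Double heterozygous against wildtype gave -0.31 (95% interval -0.67 to 0.05). Gata5-null against double heterozygous gave -0.32 (95% interval -0.68 to 0.04, unadjusted p 0.0798 in edgeR), and -0.15 without both libraries.

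Smooth muscle markers varied over the same libraries. The 13 of 13 detected markers summed to 6270 to 8410 CPM in wildtype, 5660 to 6510 in double heterozygous and 4320 to 5850 in Gata5-null, and wildtype replicates 2 and 4, which had the highest Tgfb2, had the highest sums. Within the Gata5-null group, replicate 3 had the lowest Tgfb2, but its sum of 4667 CPM lay above those of replicates 1 and 2 (4317 and 4494). Gata5-null replicate 4, with Tgfb2 close to that of replicate 1, summed to 5853 CPM. Atrial markers (7 of 7 detected) summed to 779 to 1220 CPM in wildtype, 614 to 1060 in double heterozygous and 622 to 806 in Gata5-null. Adipocyte markers (4 of 6) summed to 70.3 CPM in wildtype replicate 2 and to at most 12.6 in the other libraries, and that replicate had the lowest heart muscle sum, 25330 CPM. The part of these tissues in the Tgfb2 values was not tested. In pooled tissue, fewer cells of a type and less RNA per cell cannot be told apart.

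Tgfb3, the highest of the class per kilobase, held 132, 163, 129.5 and 169 CPM in wildtype, 128, 139.8, 140.1 and 149 in double heterozygous and 114, 128, 115 and 136 in Gata5-null. The groups overlapped, since wildtype replicates 1 and 3 lay below Gata5-null replicate 4. The log2 fold change for Gata5-null against wildtype was -0.26 (SE 0.13, 95% interval -0.53 to 0.01), with an unadjusted p of 0.0541 in edgeR, and -0.18 without both libraries that stood apart. Tgfb1, the form best known for acting on fibroblasts and immune cells, had means of 27.2, 26.2 and 27.2 CPM in wildtype, double heterozygous and Gata5-null, and a 95% interval of -0.51 to 0.50 for Gata5-null against wildtype.

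Ltbp4 and Ltbp1, the most abundant members per kilobase, were also among those that varied least between replicates. Ltbp4, a microfibril and elastic fibre protein, held 656, 825, 628 and 779 CPM in wildtype, 625, 639, 699 and 674 in double heterozygous and 688, 646, 627 and 649.8 in Gata5-null. Ltbp1, which holds latent TGF-beta in the matrix, held 431, 561, 428 and 541 CPM in wildtype, 437, 472, 459 and 457 in double heterozygous and 432, 442, 428 and 467 in Gata5-null. For both genes wildtype replicates 2 and 4 were the highest of all 12 libraries and the remaining values lay close together. Their log2 fold changes for Gata5-null against wildtype were -0.15 (95% interval -0.38 to 0.08) and -0.15 (95% interval -0.38 to 0.09). Without both libraries that stood apart they were -0.05 and -0.06. Ltbp3 had a log2 fold change of -0.17 and Ltbp2 one of 0.11 in the same comparison, which became -0.08 and 0.19 without both.

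Bmp4 and Bmp6 were the highest BMP ligands per kilobase, at 15.3 and 10.1 CPM per kilobase. Bmp4, a cushion and outflow tract ligand, held 23.3, 25.5, 22.5 and 45.9 CPM in wildtype, 41.2, 25.1, 35.3 and 36.3 in double heterozygous and 43.98, 33.9, 42.4 and 36.2 in Gata5-null. Bmp6, an endothelial ligand known for control of iron balance, held 30.9, 34.96, 31.8 and 57.8 CPM in wildtype, 45.2, 24.3, 30.9 and 50.3 in double heterozygous and 56.8, 31.7, 37.1 and 42.6 in Gata5-null. Wildtype replicate 4 was the highest of all 12 libraries for both genes, far above the other 3 wildtype ones, and the groups overlapped. The log2 fold change for Gata5-null against wildtype was 0.42 for Bmp4 (SE 0.23, 95% interval -0.05 to 0.89) and 0.12 for Bmp6 (95% interval -0.40 to 0.63). Without wildtype replicate 4 the Bmp4 value was 0.72, and Bmp4 was then at an unadjusted p under 0.05 in edgeR in both comparisons with wildtype. Bmp2, the ligand best known for starting cushion transition and for osteogenic signalling, was low, with means of 7.66, 7.92 and 4.86 CPM and a 95% interval of -1.71 to 0.40. Bmp3, Bmp5 and Bmp8b had log2 fold changes of -0.27, -0.30 and 0.73, each with an interval across 0. Without both libraries that stood apart they were -0.69, -0.47 and 0.45, with an unadjusted p of 0.0372 and an adjusted p of 0.91 for Bmp3 in edgeR. With 1 library left out Bmp3 ranged from -0.57 to -0.00425, Bmp5 from -0.64 to -0.06 and Bmp8b from -0.16 to 1.37.

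Gdf11 and Gdf10 led the GDF class. Gdf11, a myostatin relative, held 15.2, 20.2, 14.4 and 20.4 CPM in wildtype, 24.3, 11.6, 25 and 23.7 in double heterozygous and 20.1, 14.4, 13.9 and 19.4 in Gata5-null, and double-heterozygous replicate 2 was the lowest of the 12. Gdf10, also called Bmp3b, held 19.2, 15.2, 16.1 and 21.3 CPM in wildtype, 24.9, 29.8, 21.3 and 19.3 in double heterozygous and 22.4, 13.3, 32.97 and 32.8 in Gata5-null. Its 95% interval for Gata5-null against wildtype was -0.06 to 1.06 around 0.50, which was 0.28 without both libraries that stood apart, and Gata5-null replicate 2 was below all wildtype libraries while replicates 1, 3 and 4 were above them. Gdf6 and Gdf7, joint and skeletal ligands, were lower, with wildtype means of 8.202 and 2.06 CPM. Gdf1 was at 0 in 5 libraries, and since the count table holds a second identifier with the same symbol, its reads may be split and its value is uncertain.

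Inhba, which encodes the beta chain of activin A, had its highest mean in the double-heterozygous group. It held 80.7, 79.6, 93.1 and 105 CPM in wildtype, 175, 116, 93.5 and 124 in double heterozygous and 81.4, 81.5, 77.4 and 94.3 in Gata5-null. Double-heterozygous replicate 1 was the highest of all, and replicate 3 lay inside the range of both other groups. The means were 89.6 ± 11.9, 127 ± 34.6 and 83.7 ± 7.33 CPM (SD, n = 4). Double heterozygous against wildtype gave a log2 fold change of 0.51 (SE 0.16, 95% interval 0.17 to 0.84), with an unadjusted p of 0.00519, an adjusted p of 1 in edgeR and an exact permutation p of 0.0571. For Gata5-null against double heterozygous it was -0.60 (SE 0.16, 95% interval -0.94 to -0.26), with an unadjusted p of 0.00121 and an adjusted p of 1 in edgeR. Without double-heterozygous replicate 1 these values were 0.31 and -0.39, with unadjusted p of 0.0618 and 0.0203 in edgeR. Gata5-null and wildtype differed by -0.10 (95% interval -0.44 to 0.24). Inhbb, the activin B chain, held 15.96, 20.5, 10.9 and 21.4 CPM in wildtype, 18.9, 8.74, 20.3 and 11.5 in double heterozygous and 18.4, 5.12, 4.48 and 10.5 in Gata5-null, and its log2 fold change for Gata5-null against wildtype was -0.83 (95% interval -1.66 to 0.0021, unadjusted p 0.0505 in edgeR). Without both libraries that stood apart it was -0.49, with an unadjusted p of 0.234 in edgeR, and with 1 library left out it ranged from -1.34 to -0.58. Gata5-null replicates 2, 3 and 4 were below every wildtype library and replicate 1 was inside the wildtype range.

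**Figure D3:**
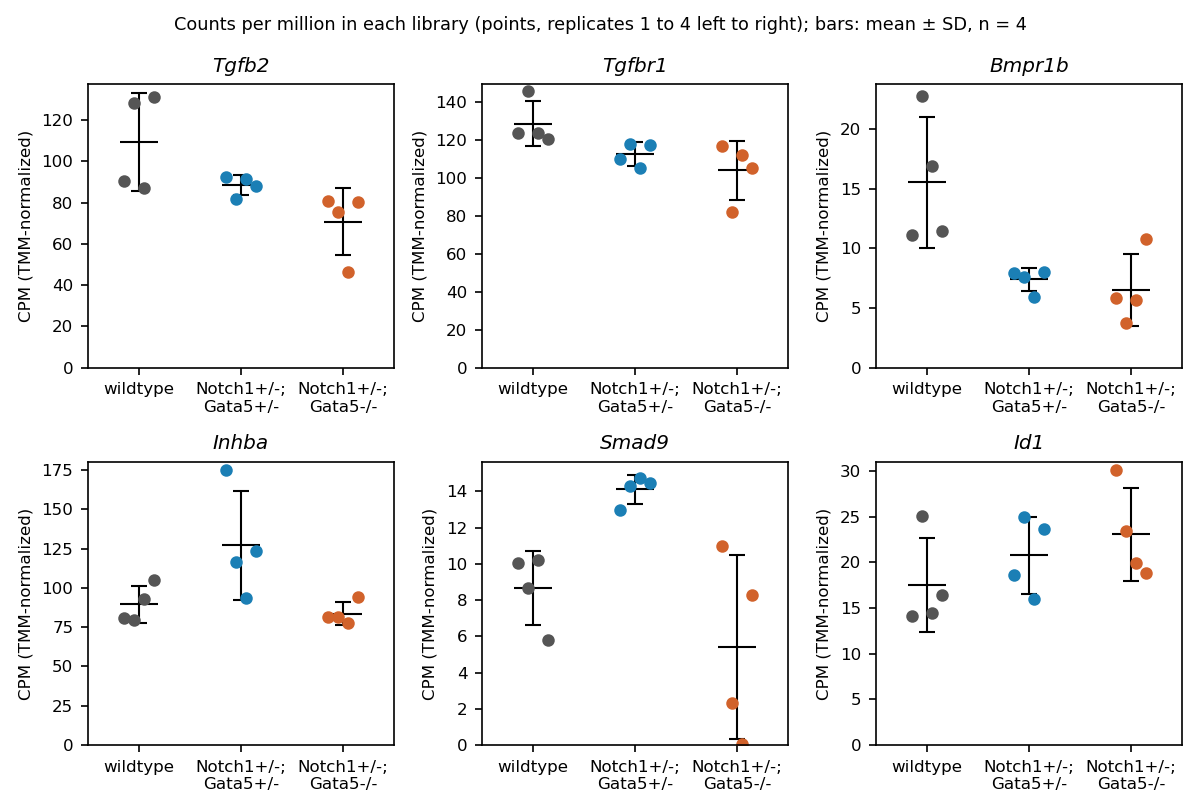
CPM of Tgfb2, Tgfbr1, Bmpr1b, Inhba, Smad9 and Id1 in each library (points, replicates 1 to 4 left to right, vertical axes from 0), with the mean and SD of each group (n = 4). Tgfb2 and Bmpr1b are lower in all Gata5-null than in all wildtype libraries, Inhba is highest in double-heterozygous replicate 1 at 175 CPM, and Smad9 spreads from 0.0688 to 11 CPM in the Gata5-null group.

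Of the type I receptors, Bmpr1b was the one with the lowest p, and Bmpr1a, its more abundant relative, was among the members that varied least. Bmpr1b held 11.1, 22.8, 16.9 and 11.4 CPM in wildtype, 7.96, 7.63, 5.95 and 8.06 in double heterozygous and 5.85, 3.76, 5.71 and 10.8 in Gata5-null. Every library of both mutant groups lay below every wildtype library. Gata5-null against wildtype gave a log2 fold change of -1.25 (SE 0.39, 95% interval -2.05 to -0.44), with an unadjusted p of 0.0038 and an adjusted p of 0.738 in edgeR. Double heterozygous against wildtype gave -1.07 (SE 0.39, 95% interval -1.87 to -0.27), with an unadjusted p of 0.0109 and an adjusted p of 1. Exact permutation tests gave 0.0286 for each, the smallest they can give. The mutant groups differed from each other by -0.18 (95% interval -0.97 to 0.62), and since both comparisons use the same wildtype libraries their direction is not independent. Wildtype replicate 2, one of the libraries that stood apart, was the highest at 22.8 CPM. Without it and Gata5-null replicate 3 the values were -0.94 and -0.83, with unadjusted p of 0.0248 and 0.0312 in edgeR. Without wildtype replicate 2 alone, edgeR gave an unadjusted p of 0.0624 for the double-heterozygous comparison.

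Bmpr1a, the main BMP type I receptor of cushion cells, held 248, 259, 231 and 274 CPM in wildtype, 239.9, 236, 229 and 232 in double heterozygous and 221, 217, 211 and 285 in Gata5-null, where replicate 4 was the highest of all 12. Tgfbr1, the type I receptor of TGF-beta, held 124, 146, 124 and 121 CPM in wildtype, 109.7, 118, 105 and 117 in double heterozygous and 117, 81.9, 112 and 105 in Gata5-null. Each wildtype library exceeded each mutant library, with the closest pair 121 in wildtype and 118 in double heterozygous. The log2 fold change for Gata5-null against wildtype was -0.31 (SE 0.14, 95% interval -0.59 to -0.03), with an unadjusted p of 0.0335 and an adjusted p of 0.872 in edgeR and an exact permutation p of 0.0286. It was -0.19 for double heterozygous against wildtype, with an unadjusted p of 0.17 in edgeR. The unadjusted p was above 0.05 under several other settings, for example 0.142 in edgeR without Gata5-null replicate 2, with a log2 fold change of -0.21. Acvr1, Acvr1b, Acvrl1 and Acvr1c, which serve BMPs, activins and related ligands, had log2 fold changes of 0.21, 0.04, 0.16 and 0.28 for Gata5-null against wildtype, and 0.06, -0.07, 0.20 and 0.96 without both libraries that stood apart.

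Among the type II receptors, Bmpr2 varied least between libraries. This gene, the main BMP type II receptor, held 269, 257, 251 and 257 CPM in wildtype, 265, 248, 233 and 267 in double heterozygous and 245, 228, 189 and 246 in Gata5-null. All Gata5-null libraries lay below all wildtype ones, by a small margin, and the log2 fold change was -0.19 (SE 0.12, 95% interval -0.43 to 0.05, unadjusted p 0.121 in edgeR, exact permutation p 0.0286). Gata5-null replicate 3 was the lowest, and without both libraries that stood apart the value was -0.11, with an unadjusted p of 0.417 in edgeR. Tgfbr2, the TGF-beta type II receptor, held 106, 99.5, 93.8 and 110.0 CPM in wildtype, 121, 90.9, 109.9 and 97.1 in double heterozygous and 131, 103, 83.3 and 118 in Gata5-null, with a 95% interval of -0.22 to 0.39. Its Gata5-null libraries held both the highest and the lowest value of the 12. The activin receptors Acvr2a and Acvr2b had log2 fold changes of 0.14 and -0.80 in the same comparison (0.25 and -0.56 without both libraries), and Acvr2b was low, with a wildtype mean of 8.61 CPM. The co-receptor Tgfbr3, or betaglycan, which presents TGF-beta2 to its receptors, held 86.3, 70.6, 63.4 and 55.5 CPM in wildtype, 56.01, 62.97, 67.5 and 70.2 in double heterozygous and 65.2, 61.2, 86.9 and 56 in Gata5-null, with a 95% interval of -0.38 to 0.31 for Gata5-null against wildtype.

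Members whose groups did not overlap were counted across roles. The comparisons share groups and several genes recur between them, so the counts are not separate results. Any difference from the share of all genes rests on few genes and was not tested. Such members numbered 2 to 4 of 46 in each comparison. For Gata5-null against wildtype these were Bmpr1b, Bmpr2, Tgfb2 and Tgfbr1, all lower, 4 of 46 against 2.93% of all genes (0.936% higher, 1.99% lower). Between double heterozygous and wildtype, Smad9 lay above and Bmpr1b and Tgfbr1 below, 3 of 46 against 2.24% of all genes (1.32% higher, 0.915% lower). For Gata5-null against double heterozygous Smad9 and Tgfb2 lay below, 2 of 46 against 2.73% of all genes (0.703% higher, 2.03% lower). The members' median log2 fold change was -0.07, -0.04 and -0.02 in the 3 comparisons, beside -0.03, 0.0018 and -0.04 for all genes. Negative values were held by 28, 28 and 27 of the 46 members. Positive values were held by 18, 18 and 19, where 46.1%, 50.3% and 44.5% of all genes were positive. Under RLE scaling (the median-ratio method) the last of these became 25, with a median of 0.02, so the side held by most members in that comparison depends on the scaling.

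For the receptor-activated Smads other than Smad9 the log2 fold changes of Gata5-null against wildtype lay close to 0. Smad5 held 105, 78.3, 126 and 123 CPM in wildtype, 116, 111, 114 and 123 in double heterozygous and 94.4, 108, 98.8 and 123 in Gata5-null. Smad1 held 39.98, 33.2, 33.6 and 35.5 CPM in wildtype, 38.7, 38.6, 30.9 and 30.2 in double heterozygous and 42.7, 28.2, 30.4 and 29.5 in Gata5-null. Both transmit BMP signals, and the 95% interval for Gata5-null against wildtype was -0.33 to 0.28 for Smad5 and -0.52 to 0.28 for Smad1. Wildtype replicate 2 was the lowest of all 12 libraries for Smad5. The TGF-beta transducer Smad2 held 65.4, 74.4, 72.1 and 70.8 CPM in wildtype, 67.4, 65.7, 71.2 and 73.1 in double heterozygous and 84.7, 61.1, 31.5 and 91.03 in Gata5-null. Smad3, its partner, held 52.97, 59.6, 37.9 and 42.7 CPM in wildtype, 45.3, 41.2, 54.8 and 42.1 in double heterozygous and 57.7, 34.8, 72.1 and 42 in Gata5-null. Gata5-null replicate 3 had the lowest Smad2 and the highest Smad3 of all libraries, and the log2 fold changes were -0.07 and 0.10. Without both libraries that stood apart they were 0.19 and 0.02, so the sign of Smad2 turned, and with 1 library left out they ranged from -0.26 to 0.17 and from -0.10 to 0.24. Smad1 and Smad5 were at -0.11 and -0.12 without both.

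Smad9, the third BMP-activated Smad, is named here after its values were seen. It held 10.03, 8.68, 10.2 and 5.81 CPM in wildtype, 12.96, 14.3, 14.7 and 14.5 in double heterozygous and 11.01, 2.33, 0.0688 and 8.26 in Gata5-null, where replicates 2 and 3 rested on 36 and 1 counts. The SD was 23.4% of the mean in wildtype, 5.58% in double heterozygous and 93.8% in Gata5-null, and the intervals below rest on a spread shared by all 3 groups. With only the 8 libraries of double heterozygous and wildtype, Smad9 was at an unadjusted p under 0.05 in edgeR. In that setting 0 members passed after adjustment. Double-heterozygous values all lay above those of the other groups. In log2 terms the difference was 0.70 for double heterozygous against wildtype (95% interval -0.87 to 2.28, exact permutation p 0.0286) and -1.37 for Gata5-null against double heterozygous (SE 0.75, 95% interval -2.97 to 0.23, unadjusted p 0.0875 in edgeR). For Gata5-null against wildtype it was -0.67 (95% interval -2.25 to 0.91). Without wildtype replicate 2 and Gata5-null replicate 3 the last of these was -0.26 and the comparison of both mutant groups -0.95, with an unadjusted p of 0.0195 and an adjusted p of 1 in edgeR.

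The common and inhibitory Smads overlapped between the genotypes in every comparison. Smad4, which joins every activated Smad, held 68.3, 86.6, 61.7 and 81.5 CPM in wildtype, 67.6, 71.4, 73.98 and 76.9 in double heterozygous and 68.4, 75.3, 65.5 and 74.3 in Gata5-null, with a 95% interval of -0.37 to 0.23 for Gata5-null against wildtype. Smad7, which blocks the receptors and is induced by TGF-beta, held 91.9, 128, 86.7 and 115 CPM in wildtype, 109.7, 105, 110.2 and 103 in double heterozygous and 157, 110.0, 102 and 98.8 in Gata5-null. Smad6, which blocks BMP signals, held 41.95, 60.3, 47.8 and 53.3 CPM in wildtype, 45.5, 55.3, 46.97 and 53.4 in double heterozygous and 65.8, 60.5, 38.7 and 46.3 in Gata5-null. Both varied with single libraries: Gata5-null replicate 1 was the highest in Smad7 and in Smad6. Smad7 and Smad6 differed between Gata5-null and wildtype by 0.15 (95% interval -0.18 to 0.48) and 0.06 (95% interval -0.32 to 0.43). Without both libraries that stood apart the values were 0.33, with an unadjusted p of 0.0571 in edgeR, and 0.28, and Smad4 was at 0.05.

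Id proteins bind basic helix-loop-helix factors and block them, and their genes are read as reporters of BMP signals. Id1 held 14.1, 25.1, 14.4 and 16.5 CPM in wildtype, 18.6, 24.9, 15.9 and 23.6 in double heterozygous and 30.1, 23.4, 19.96 and 18.8 in Gata5-null. Wildtype replicates 1, 3 and 4 lay below every Gata5-null library and replicate 2 inside their range. The log2 fold change for Gata5-null against wildtype was 0.40 (SE 0.26, 95% interval -0.14 to 0.94, unadjusted p 0.143 in edgeR, exact permutation p 0.143). Without wildtype replicate 2 and Gata5-null replicate 3 it was 0.69, with an unadjusted p of 0.0126 and an adjusted p of 0.91 in edgeR. Id3 held 28.9, 51.7, 42.04 and 48.2 CPM in wildtype, 40.6, 36.4, 30.8 and 46.99 in double heterozygous and 56.9, 21.7, 23.1 and 46.8 in Gata5-null, and Gata5-null replicates 2 and 3 were the lowest and replicate 1 the highest of all 12. Id3, Id2 and Id4 had log2 fold changes of -0.20, -0.10 and 0.07, and 0.08, -0.15 and 0.18 without both libraries. The 95% interval of all 4 Id genes lay within ±1 on the log2 scale in each comparison.

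Bmp1 and Bmp2k fall under the name rule without being ligands. Bmp1, a procollagen proteinase, held 198, 234, 203 and 166 CPM in wildtype, 221, 189, 233 and 172 in double heterozygous and 175, 202, 190.1 and 165 in Gata5-null. Bmp2k, an endocytic kinase, held 28.7, 23.5, 26.8 and 15.7 CPM in wildtype, 29.1, 17.2, 31.1 and 23.6 in double heterozygous and 28.8, 16.1, 34.2 and 20.98 in Gata5-null. Their groups overlapped in every comparison.

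**Figure D4:**
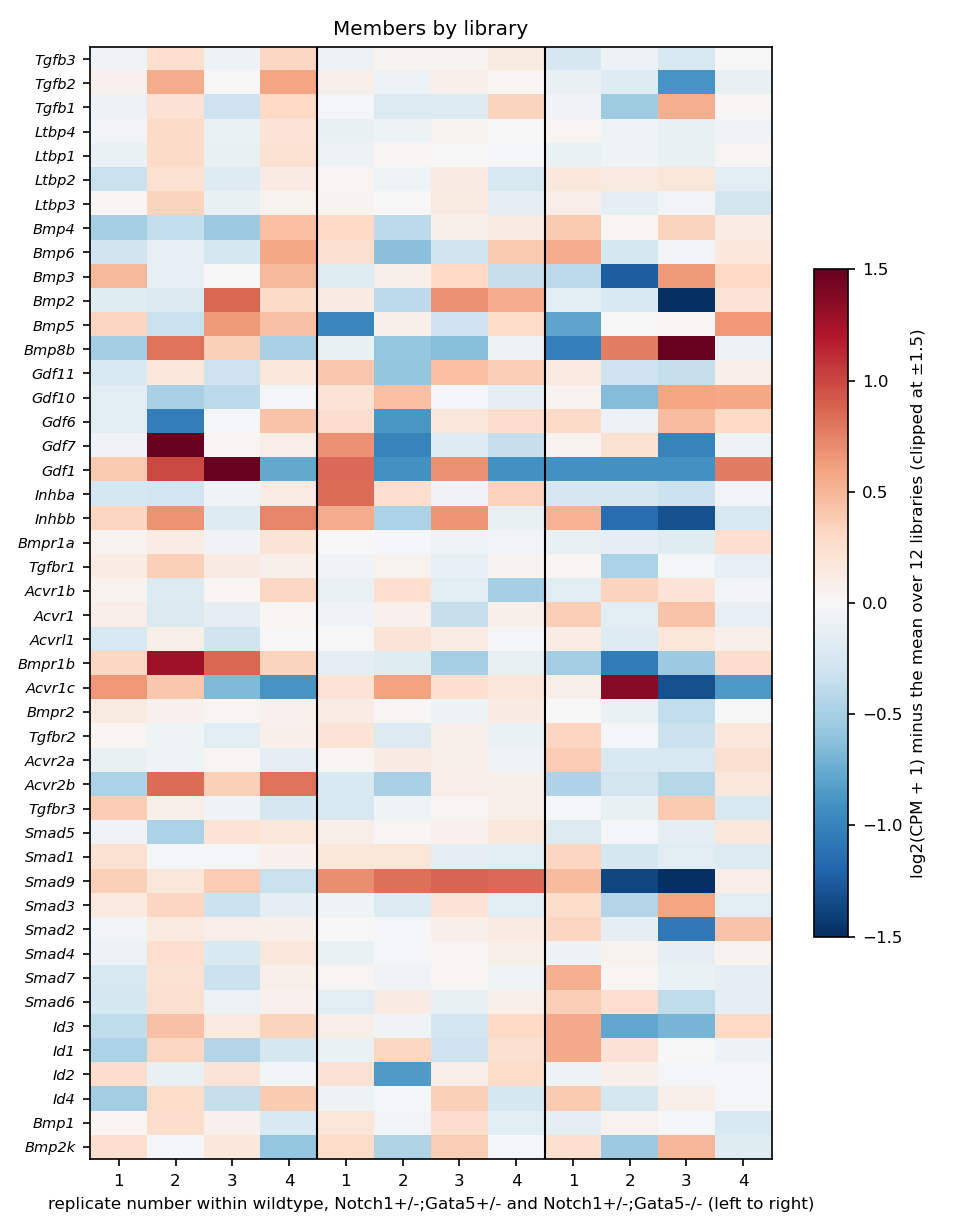
Each member in each library as log2(CPM + 1) minus its mean over the 12 libraries (colour, clipped at ±1.5), members ordered by role and libraries by genotype and replicate. Pale rows such as Ltbp1, Ltbp4, Smad4 and Bmpr2 vary little, and the deepest colours are mostly in members of few counts, such as Gdf7, Gdf1, Bmp8b and Smad9.

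The spread between replicates also differed among the members. The median coefficient of variation over members was 18.7% in wildtype, 13.8% in double heterozygous and 22.1% in Gata5-null. Averaged over the 3 groups it was lowest for Bmpr2, Ltbp1, Ltbp4, Bmpr1a and Smad4, at 6.95%, 7.18%, 7.40%, 8.02% and 9.17%.

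Other genes of the pathway were read from lists of regulators and responsive genes. Of 33 tested extracellular regulators and co-receptors, 23 intracellular regulators and 12 BMP-responsive genes, 0 passed the adjusted threshold in edgeR for Gata5-null against wildtype. Of the regulators outside the cell, 2 were higher and 3 lower at an unadjusted p under 0.05, or 15.2% against 5.4% of all genes. That share rests on 5 genes of both directions, and the median log2 fold change of the list was 0.00068. Of the intracellular and of the BMP-responsive genes, 0 reached that p. In the other 2 comparisons 0 genes of these lists passed the adjusted threshold. Twsg1, a BMP-binding protein, averaged 130.4 CPM in Gata5-null and 172.5 in wildtype (log2 fold change -0.40, adjusted p 0.839 in edgeR). Fbn2, a microfibril protein that binds BMPs, averaged 291 and 231 CPM (log2 fold change 0.33), and Htra3, a proteinase that binds TGF-beta ligands, 34.1 and 48.7 CPM (log2 fold change -0.52).

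Of 21 TGF-beta-responsive genes, 14 had a negative and 7 a positive log2 fold change in Gata5-null against wildtype. At the adjusted threshold 1 was called lower and 0 higher in edgeR, where 0.0258% of all genes were called. In the other 2 comparisons 0 passed. At an unadjusted p under 0.05, 1 was higher and 3 lower in Gata5-null than in wildtype, or 19% against 5.4% of all genes. The gene called lower was Cnn1, calponin, which averaged 157 CPM in Gata5-null and 276 CPM in wildtype. On the log2 scale it fell by 0.81 (SE 0.15), and edgeR gave an adjusted p of 0.0365. The call was lost with only the 8 libraries compared (adjusted p 0.278 in edgeR), without both libraries that stood apart (0.107), under a stricter filter (0.0568), and without wildtype replicate 2 (0.23) or 4 (0.141), double-heterozygous replicate 1 (0.0518) or Gata5-null replicate 1 (0.297) or 2 (0.178). In the other alternatives its adjusted p was 0.000592 to 0.0478, and over all 21 alternatives the log2 fold change was -0.90 to -0.68. Tagln (log2 fold change -0.65, adjusted p 0.0978) and Acta2 (-0.57, adjusted p 0.375) had the next smallest p in edgeR. Cnn1, Tagln and Acta2 are the 3 genes counted above as lower at an unadjusted p under 0.05. They encode contractile proteins of smooth muscle and also stand in the smooth muscle marker list. That count is therefore not separate from the smooth muscle markers. The 13 genes of the marker list had a median log2 fold change of -0.57, with 4 called lower. Over all genes 5 were called, against 0 with only the 8 libraries compared and 2 without wildtype replicate 2 or without both libraries that stood apart, so at least 2 of those 4 calls were lost in each of these settings. For double heterozygous against wildtype Acta2 (-0.30) and Cnn1 (-0.35) were at an unadjusted p under 0.05, and for Gata5-null against double heterozygous Tagln (-0.39), Cnn1 (-0.46), Nbl1 (-0.65), a BMP antagonist, and Twsg1 (-0.32) were, all with an adjusted p of 1 in edgeR. The part of smooth muscle content in these values was not tested.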

How the data were processed

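The members, roles and gene lists were chosen with earlier results of these data known. Each library is messenger RNA of 3 pooled valves. Per the submitters' processing notes, Trim Galore, STAR 2.7.10b, DESeq2 1.34.0 and the GRCm39 build were used. For the counting tool, annotation and strand, the sources used here say nothing, and the labels describe directional and non-directional libraries, so reads of overlapping genes on opposite strands cannot be told apart. The deposited counts are whole numbers per gene and library. The authors' deposited comparison table holds the normalized signal averaged over libraries, the log2 fold change, scores (its standard error and Wald statistic) and the p-value before and after adjustment. It does not name its groups, and a refit of Gata5-null against wildtype gave its fold changes to within 0.0001655 (log2). It marks 33 genes, 0 of them members, and was used for symbols. That table served 13959 identifiers, GENCODE vM21 named 6077 more, and 584 had no symbol.

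Counts were filtered with filterByExpr, which kept 19346 of 20620 genes and all 46 members, scaled by TMM and fitted with the robust quasi-likelihood model of edgeR 4.0.16 in R 4.3.3, with a term per group over the 12 libraries. CPM below 0.124 to 0.207, depending on the library, is within 3 counts, a floor that covers counting error only. Levels per kilobase use the union of exons in GENCODE vM21 on GRCm38, an older build than the authors', as do the RefSeq promoters, so only promoter coordinates are given. Benjamini-Hochberg adjustment covered every gene tested. For single genes a two-sided exact permutation test used the 35 distinct splits of 8 libraries into 4 and 4, whose smallest p is 0.0286. P-values measure the spread between pools. The smallest chi-square per degree of freedom between libraries of a group was 24.3, so none was another library of its group sequenced again. Separate libraries made from a shared pool cannot be told apart this way.

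Values in every library are given for members with an unadjusted p under 0.05 in any comparison and for the 2 highest per kilobase in each role, 27 in all, and for Smad9, chosen after its values were seen; of the other pathway genes, up to 6 per comparison by p are named. Tested on simulated data for Gata5-null against wildtype with 19346 genes, the fit called 40% of genes raised 2-fold, 24% lowered to 0.5, 60% raised 4-fold, 62% lowered to 0.25 and 0.0418% of unchanged genes. The changed genes, 50 per fold, were drawn from those with an average log2 CPM above 1. These rates therefore do not cover members of lower level. Alternatives were RLE scaling, no filter, a filter of 1 CPM in 4 libraries, DESeq2 1.42.0, limma-voom (limma 3.58.1), only the 8 libraries compared, the replicate number as a block, a heart muscle score as covariate, and libraries left out.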

Additional observations from a re-analysis of the deposited data

Results flagged for a closer look

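Among 138 sets of 4 libraries, one for each member and genotype, 11 held a library whose gap to the nearest of the others exceeded the 95% critical share of the set's whole range in Dixon's test, and chance alone gives about 1 in 20 such sets. In wildtype, replicate 4 had 45.9 CPM of Bmp4 against 22.5 to 25.5 in the other 3, and 57.8 CPM of Bmp6 against 30.93 to 34.96. Wildtype replicate 2 had 5.12 CPM of Gdf7 against 0.936 to 1.15, and 146 CPM of Tgfbr1 against 121 to 124. In the double-heterozygous group replicate 2 had 11.6 CPM of Gdf11 against 23.7 to 25, and 4.45 CPM of Gdf6 against 10.23 to 10.98. In the Gata5-null group replicate 4 had 285 CPM of Bmpr1a against 211 to 220.5, 300.1 CPM of Ltbp2 against 369 to 378, and 2.23 CPM of Gdf1 against 0 in the other 3. Gata5-null replicate 1 had 42.7 CPM of Smad1 against 28.2 to 30.4, and replicate 3 had 46.5 CPM of Tgfb2 against 75.6 to 80.6.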

How the results depend on the processing

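The number of members called was 0 in each comparison under every alternative run. The 6 member log2 fold changes with an unadjusted p under 0.05 (Tgfb2, Tgfbr1 and Bmpr1b for Gata5-null, Bmpr1b and Inhba for double heterozygous, both against wildtype, and Inhba between the mutant groups) kept their sign in all 21 alternatives, with adjusted p from 0.209 to 1 in edgeR, DESeq2 and limma-voom. They were picked by that p in these same data, so a kept sign is no separate support. Genes called for Gata5-null against wildtype were 5, but 45 with DESeq2, 0 with only the 8 libraries compared, 2 without both libraries that stood apart, and 2 to 21 with 1 library left out (2 without wildtype replicate 2, 3 without Gata5-null replicate 1, 21 without Gata5-null replicate 4). For double heterozygous against wildtype they were 0, and 1 with DESeq2. Between the mutant groups they were 0, but 3 with DESeq2, 2 without both libraries, and 0 to 1 with 1 left out (1 without Gata5-null replicate 2, 3 or 4). Members at an unadjusted p under 0.05 were 2 to 5 for Gata5-null against wildtype with 1 library left out, with 5 without wildtype replicate 3 and without Gata5-null replicate 4. For double heterozygous against wildtype they were 1 to 3, with 1 without wildtype replicate 2 and without double-heterozygous replicate 1, and 4 with only the 8 libraries compared. Between the mutant groups they were 1 to 3, with 3 without Gata5-null replicate 1 and 2 without replicate 3 or 4, and 2 with DESeq2, limma-voom and without both libraries. The cause of these shifts was not tested. With limma-voom the median log2 fold change of all genes between the mutant groups was -0.11, against -0.04 with edgeR.

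With the replicate number as a block, 7, 0 and 0 genes were called in the 3 comparisons, and 5, 2 and 2 members had an unadjusted p under 0.05, against 3, 2 and 1 without it. Deviations of same-numbered libraries correlated at -0.0331 to 0.0951 over 12 pairs, and 3 of 12 libraries correlated best with their own number. Differently numbered libraries correlated at -0.0612 to 0.0553. The highest value, 0.0951, was between replicate 4 of wildtype and replicate 4 of double heterozygous. Whether same-numbered libraries share a source was not tested. For Gata5-null against wildtype, 12 of 46 members had an interval that reached beyond 2-fold.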

Other observations

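The count table also held genes whose symbols fit the name rule but that are not in the authors' comparison table, among them Bmp7, Bmp15, Gdf2, Gdf5, Gdf15, the BMP antagonist Nog and a second Gdf1 identifier. These were near the floor, with means over the 12 libraries of 0.245 CPM for Nog to 1.005 CPM for the second Gdf1 identifier. Bmp7, a cushion ligand, had 81 counts in double-heterozygous replicate 4, 41 in Gata5-null replicate 4 and 23 in wildtype replicate 4, and at most 11 in each of the other libraries. Nog had counts in 4 of the 12 libraries.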
